A study of Mus musculus with 8 samples.

Results

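Lactate dehydrogenase A (Ldha) and pyruvate dehydrogenase kinase 1 (Pdk1) stand for glycolysis here, and acetyl-CoA acyltransferase 2 (Acaa2) and medium-chain acyl-CoA dehydrogenase (Acadm) for the oxidation of fat. All rows of the deposited peak table with 1 of these 4 gene symbols were taken, which gave 5 of 6425 peaks: 1 each at Ldha, Pdk1 and Acadm, and 2 at Acaa2. The assay was ATAC-seq, which reads chromatin accessibility from where the enzyme Tn5 can cut and tag the DNA. The material was kidney tubuloids, which are tubule epithelium grown in Matrigel from dissected renal cortex of wildtype mice. Vehicle-treated tubuloids (4 libraries) were compared with tubuloids given myoglobin (4 libraries), the haem protein of muscle, and both were collected at 12 h. The labels give no age, sex or strain, and the cells are primary cultures described only as renal tubular epithelial cells.

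Tubule cells of the kidney cortex, above all those of the proximal tubule, normally make most of their ATP by burning fatty acids in mitochondria, and after injury they are known to lean more on glycolysis. Ldha makes the enzyme subunit that favours the reduction of pyruvate to lactate. Pdk1 makes a kinase that switches off pyruvate dehydrogenase and so keeps pyruvate out of the citric acid cycle. Both genes are textbook targets of the hypoxia-inducible factors (HIF). Acadm makes the enzyme that starts each round of oxidation of medium-chain fatty acids. Acaa2 makes the thiolase that ends a round by splitting off acetyl-CoA, and Acadm is a classical target of the nuclear receptor PPAR alpha.

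The peak value is the number of reads in a peak after the libraries were scaled to one another and rounded by the authors. Reads behind the values were estimated from the pattern of skipped whole numbers in each column. Vehicle libraries held between 130568 and 200680 estimated reads in peaks and myoglobin libraries between 67609 and 123453, so depth and treatment moved together. Myoglobin replicates 2 and 3 were the shallowest, with 82529 and 67609 reads. Of the markers listed for the labelled cells, 4 of 9 epithelial and tubule genes (Epcam, Cdh1, Cdh16 and Pax2), 1 of 13 proximal tubule genes (Cryl1) and 1 of 10 distal nephron and collecting duct genes (Scnn1g, a sodium channel subunit) had a peak, while markers of endothelial, stromal, immune and podocyte cells had none of 15. No label says which libraries share a mouse, so p-values rest on the spread between libraries, which may in part be technical. In the linear-model test used below, most of the variance estimate at a peak was borrowed from the other peaks.

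The peaks did not all lie at the start of their gene (mm10). The Pdk1 peak, at chr2:71872988-71873337, was 350 bp wide and covered the start, with its centre 61 bp away. The Acadm peak, at chr3:153944396-153944800, was 405 bp wide and also covered the start, with its centre 34 bp away on the side of the gene body. Acaa2 had a narrow peak of 137 bp at chr18:74779062-74779198, centred 67 bp before the start. Its other peak, 134 bp wide at chr18:74778773-74778906, was centred 357 bp before the start and lay wholly inside the span of the long non-coding RNA Gm41774. The Ldha peak, at chr7:46838933-46839259, was different: its centre lay 2379 bp upstream of the gene start in the table, and 7.01% of peaks with an assigned gene lay as far or farther. RefSeq begins its Ldha span at 46842274 and gives promoter windows for starts at 46845804 and 46847082, which lie 6295 and 7573 bp beyond the peak when measured to the window edge. No other peak of the table carried the symbol Ldha, so the Ldha values below describe an upstream site and not the core promoter. Exons and introns were not used here.

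**Figure D1:**
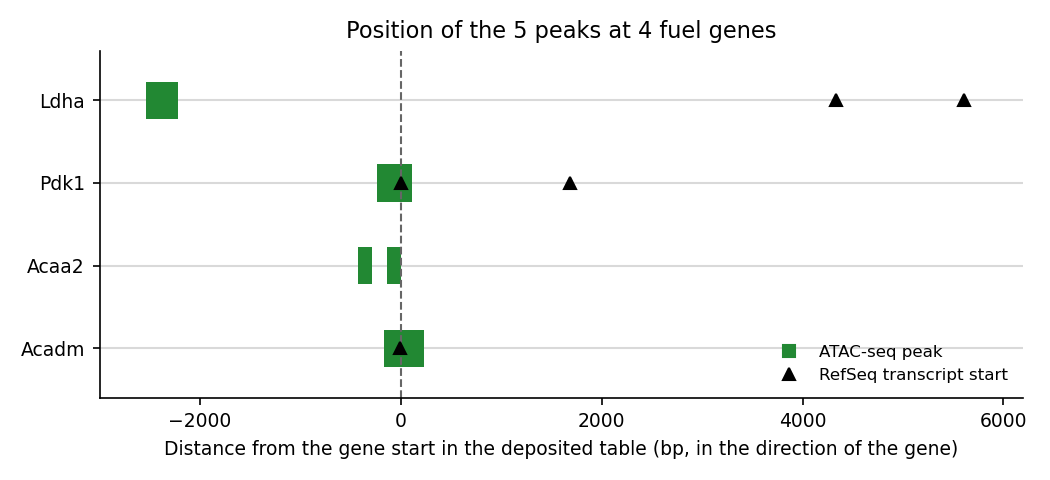
Horizontal position in bp from the gene start of the deposited table, in the direction of each gene, with green bars for the 5 peaks and triangles for RefSeq transcript starts where a promoter entry was used. The Pdk1 and Acadm peaks cover a start, the inner Acaa2 peak reaches the start and the outer one lies before it, and the Ldha peak is centred 2379 bp upstream.

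Promoter entries were used for Ldha, Pdk1 and Acadm (RefSeq, GRCm38.p6). Of the starts with such an entry, the one nearest to the peak was taken, and the 250 bases before it are shown. For Ldha, the gene start of the deposited table and the start of the RefSeq span both lie nearer to the peak. The stretches set the peaks beside the sequence elements for which these genes are known. Capitals mark the HIF core ACGTG or GCGTG on either strand and, in Acadm, also the nuclear receptor half-site AGGTCA on either strand.

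Pdk1 (chr2:71872974-71873223, plus strand): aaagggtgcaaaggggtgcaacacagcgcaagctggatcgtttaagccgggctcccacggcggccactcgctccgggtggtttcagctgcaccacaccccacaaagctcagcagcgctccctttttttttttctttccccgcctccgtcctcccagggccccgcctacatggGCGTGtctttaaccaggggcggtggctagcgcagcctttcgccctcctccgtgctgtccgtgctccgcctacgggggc

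Acadm (chr3:153944644-153944893, minus strand): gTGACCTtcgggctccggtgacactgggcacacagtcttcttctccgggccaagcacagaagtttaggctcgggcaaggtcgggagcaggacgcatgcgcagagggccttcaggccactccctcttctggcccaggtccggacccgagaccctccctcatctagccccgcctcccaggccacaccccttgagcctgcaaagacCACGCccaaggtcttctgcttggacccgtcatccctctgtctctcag

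Ldha (chr7:46845554-46845803, plus strand): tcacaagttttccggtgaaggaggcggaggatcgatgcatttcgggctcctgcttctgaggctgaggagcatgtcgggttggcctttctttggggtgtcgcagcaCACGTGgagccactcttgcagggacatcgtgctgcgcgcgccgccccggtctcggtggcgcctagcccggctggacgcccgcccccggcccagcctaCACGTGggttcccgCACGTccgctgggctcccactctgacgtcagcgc

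Of the Pdk1 stretch, 236 bases lay inside the peak, and they held 1 GCGTG, 78 bases before the start, and 1 GC box (GGGCGG). Of the Acadm stretch, 157 bases lay inside the peak and held 1 GCGTG, read on the opposite strand 47 bases before the start. The single AGGTCA of Acadm stood 249 bases before the start, outside the peak. A half-site of the factor NRF1 (GCATGCGC) began 158 bases before the start and crossed the edge of the peak, with only its first base outside. TATAAA and CCAAT were also searched and matched in none of the 3 stretches. None of the Ldha stretch was in a peak of the table, and it held ACGTG at 3 places, 2 of which form the palindromic E-box CACGTG and so match on both strands, 2 GC boxes, and 1 cAMP response element (TGACGTCA) 12 bases before the start. For scale, among 32851 promoter stretches of 250 bases, 16.6% held ACGTG, 28.2% GCGTG, 14% AGGTCA, 6.02% CACGTG, 32.7% GGGCGG, 2.26% GCATGCGC, 12.4% TATAAA, 33.8% CCAAT and 1.55% TGACGTCA, and 0.256% held ACGTG at 3 or more places. All 3 stretches were rich in G and C, at 64.0% for Pdk1, 64.0% for Acadm and 67.2% for Ldha against a median of 52.4% over all stretches. RefSeq also gives a second start for Pdk1 and for Ldha, farther from the peaks and not printed, whose stretches held 38.4% and 54.4% G and C. Of the motifs searched, the former held none and the latter 1 GCGTG. A match describes letters and does not show that a factor bound there.

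Comparing myoglobin with vehicle asks which regions opened or closed with this model of tubule injury. No member peak passed the test. Both glycolytic genes had a lower mean with myoglobin and all 3 peaks of the fat oxidation genes a higher one, and in every peak the groups overlapped. The low Pdk1 values came from the 2 shallowest myoglobin libraries, and the high Acadm mean from 1 of them. In these bulk libraries, a different mix of cells and a different accessibility within cells cannot be told apart.

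At the site upstream of Ldha, the value was 22, 26, 30 and 28 in vehicle replicates 1 to 4 and 21, 20, 15 and 24 in myoglobin replicates 1 to 4. Of the myoglobin libraries, 3 lay below every vehicle library and replicate 4 lay between them. Means were 26.5 ± 3.42 and 20 ± 3.74 (SD, n = 4 each). The log2 difference was -0.40 ± 0.22 (SE), with an interval from -0.83 to 0.04 and an adjusted p of 0.684 by limma, the linear-model test fitted across all peaks. It rested on 140 vehicle and 65 myoglobin reads, which gave a depth-corrected read ratio of 0.789 (95% interval 0.578 to 1.07, exact binomial, counting error only). Without myoglobin replicate 3, the shallowest library and the lowest value, the difference was -0.27, and without replicates 2 and 3 it was -0.22 (adjusted p = 0.859 by limma).

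The Pdk1 promoter split the myoglobin libraries. Its value was 32, 27, 25 and 29 in vehicle and 38, 14, 13 and 30 in myoglobin. Replicate 1 was above every vehicle library and replicate 4 was within their range, while replicates 2 and 3 were about level with each other and far below all of them. The low values rested on 9 and 7 estimated reads. Their 95% Poisson counting intervals, 6.29 to 26.1 and 5.25 to 26.9 on the scale of the values, did not reach that of replicate 1 (27.2 to 52.8), although they overlapped those of the vehicle libraries. Means were 28.2 ± 2.99 in vehicle and 23.8 ± 12.3 in myoglobin. The spread within the myoglobin group was thus larger than the gap between the groups. The log2 difference was -0.38 ± 0.23 (SE) with an adjusted p of 0.726 by limma, and the depth-corrected read ratio, in which the deeper libraries weigh more, was 0.927 (0.701 to 1.22). Without myoglobin replicates 2 and 3 the sign turned, to 0.26 (adjusted p = 0.802 by limma). Leaving out myoglobin replicate 1 alone gave -0.64 (adjusted p = 0.367), while without replicate 2 or replicate 3 the difference was -0.18 or -0.15. The part of depth in this split was not tested.

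Acaa2 had the lowest values of the 4 genes. At the outer peak, inside Gm41774, the value was 7, 5, 8 and 10 in vehicle and 9, 9, 11 and 18 in myoglobin. Replicates 3 and 4 of myoglobin lay above every vehicle library and the other two lay within the vehicle range. Means were 7.5 ± 2.08 and 11.8 ± 4.27, with a log2 difference of 0.57 ± 0.34 (SE), an interval from -0.12 to 1.25 and an adjusted p of 0.726 by limma.

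The inner Acaa2 peak, next to the start, was at 8, 7, 11 and 7 in vehicle and at 12, 11, 6 and 16 in myoglobin. Here replicates 1 and 4 were above every vehicle library, replicate 2 was level with the highest of them and replicate 3 was below all of them. Means were 8.25 ± 1.89 and 11.2 ± 4.11, and the log2 difference was 0.36 ± 0.34 (adjusted p = 0.879 by limma). Both peaks were highest in myoglobin replicate 4, at 18 and 16, and without that library the differences were 0.36 at the outer and 0.18 at the inner peak. Without replicates 2 and 3 they were 0.73 and 0.70 (adjusted p = 0.615 for each by limma). For the inner peak this was over 1.5 times the value from all libraries, as was the 0.60 without replicate 3 alone.

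Few reads stood behind these values. The outer peak had 39 reads over all vehicle and 38 over all myoglobin libraries, a depth-corrected ratio of 1.65 (1.03 to 2.66), and the inner peak 43 and 37, a ratio of 1.46 (0.916 to 2.32). These intervals leave out the spread between libraries, which the limma interval includes, mostly as borrowed from other peaks. In myoglobin replicate 3, the inner value of 6 came from 3 reads. Added together, the peaks gave 15, 12, 19 and 17 in vehicle and 21, 20, 17 and 34 in myoglobin, or 15.8 ± 2.99 against 23.0 ± 7.53.

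The Acadm promoter had the highest mean of the members over all 8 libraries, 30.9 against 26.0 at Pdk1, although in vehicle the Pdk1 mean was slightly higher. Its value was 28, 31, 26 and 26 in vehicle and 26, 31, 47 and 32 in myoglobin. Replicates 1 and 2 of myoglobin matched the lowest and the highest vehicle value, replicate 4 was just above them, and replicate 3 stood alone at 47 (25 reads, counting interval 30.2 to 68.8). Means were 27.8 ± 2.36 and 34 ± 9.06, with a log2 difference of 0.25 ± 0.19 (SE), an interval from -0.13 to 0.64 and an adjusted p of 0.811 by limma. The reads, 150 in vehicle and 102 in myoglobin, gave a ratio of 1.15 (0.889 to 1.5). Without replicate 3 the difference was 0.09, and without replicates 2 and 3 it was 0.06.

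**Figure D2:**
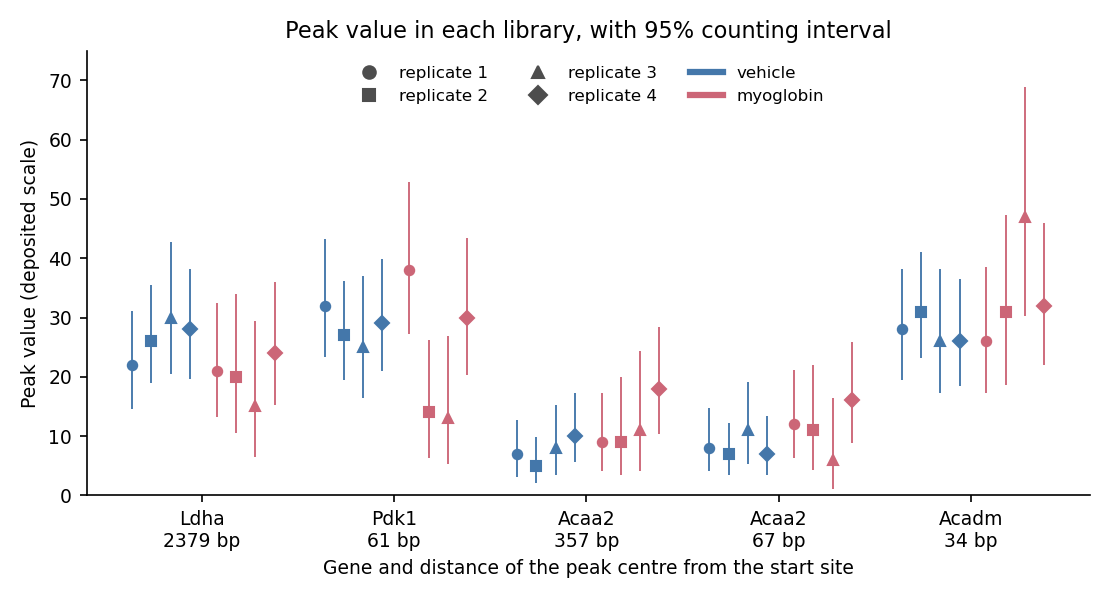
Deposited peak value (vertical axis) of the 5 peaks in each of the 8 libraries, with 95% Poisson counting intervals from the estimated reads. Pdk1 divides the myoglobin libraries into 38 and 30 against 14 and 13, and the highest Acadm value, 47, is in myoglobin replicate 3.

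In the limma fit, 0 of 5 member peaks had an adjusted p under 0.05, where 0.249% of all 6425 peaks did. None of the 5 had an unadjusted p under 0.05 either (lowest 0.0713, at Ldha), where 7.6% of all peaks did, and none had groups that did not overlap, where 3.04% did. An exact two-sided permutation test over the 70 assignments of libraries gave p = 0.0571 for Ldha, 0.4 for Pdk1, 0.0857 and 0.343 for the outer and inner Acaa2 peaks and 0.286 for Acadm. The smallest p this design allows is 0.0286. Differences of these sizes were common in the table: 19.8% of all peaks were as far from 0 as Ldha, 21.9% as far as Pdk1, 8.65% and 24.2% as far as the Acaa2 peaks, and 38.6% as far as Acadm. The limma p depended on how variance was borrowed. At Pdk1 the unadjusted p was 0.105 with the variance trend and 0.267 without it. Without the trend it was 0.0799 at Ldha, 0.264 at Acadm, and 0.057 and 0.223 at the outer and inner Acaa2 peaks. In folds, the limma intervals with the trend ran from 0.561 to 1.02 for Ldha, 0.561 to 1.06 for Pdk1, 0.922 to 2.38 and 0.800 to 2.05 for Acaa2, and 0.915 to 1.56 for Acadm. The intervals thus hold folds as low as 0.561 at the glycolytic sites and as high as 1.56 at Acadm together with no change, and a p that misses the threshold does not show that the groups were alike.

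**Figure D3:**
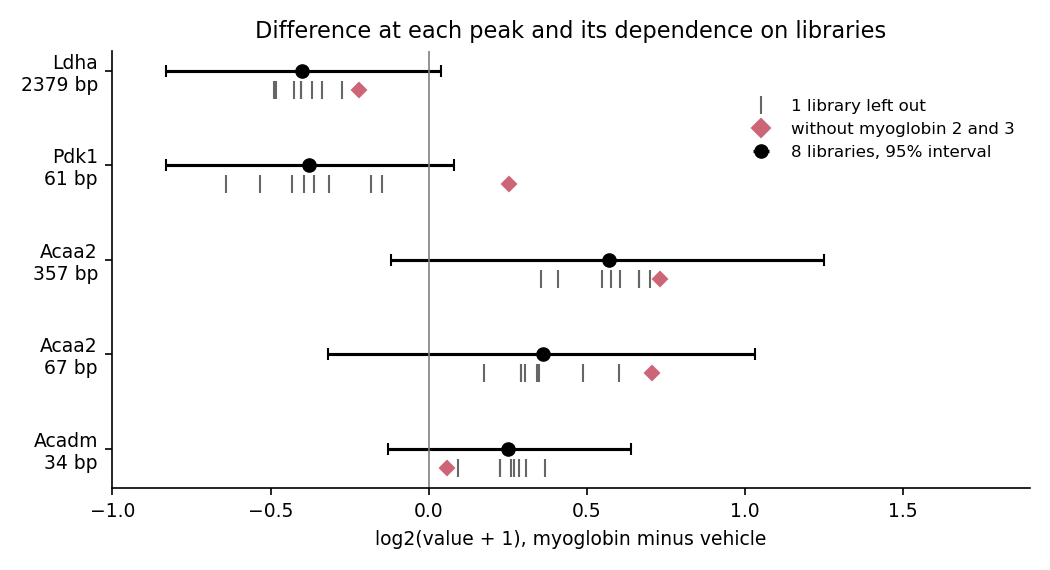
Difference in log2(value + 1), myoglobin minus vehicle, at the 5 peaks: black points with 95% limma intervals use all 8 libraries, grey ticks leave out 1 library each and red diamonds leave out myoglobin replicates 2 and 3. Every black interval spans 0, and the Pdk1 diamond lies at 0.26, on the other side of 0 from its black point at -0.38.

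The classes were then set side by side within each library, as the mean log2(value + 1) of Acaa2 and Acadm (the 2 Acaa2 peaks averaged first) minus that of Ldha and Pdk1. This gap was -0.81, -0.89, -0.76 and -0.89 in vehicle replicates 1 to 4 and -0.74, 0.08, 0.49 and -0.19 in myoglobin replicates 1 to 4. Vehicle libraries agreed closely and myoglobin libraries were spread out. The latter ran from a library next to the vehicle range to one with the classes in the opposite order. No counting error was worked out for this gap. Single Acaa2 values in it rested on as few as 8 reads in vehicle and 3 in myoglobin. How much of the vehicle agreement or of the myoglobin spread is counting error was not tested. All 4 myoglobin gaps were above the vehicle gaps, but the genes were paired into classes with these values known, so the direction is no support and no test is given. Group means were -0.84 ± 0.06 and -0.09 ± 0.51, a difference of 0.74. Without myoglobin replicates 2 and 3, the shallowest libraries, it was 0.37, and with each library left out in turn it ran from 0.55 (without myoglobin replicate 3) to 0.96 (without myoglobin replicate 1).

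The parts behaved differently. The glycolytic mean was 4.78, 4.78, 4.83 and 4.88 in vehicle and 4.87, 4.15, 3.90 and 4.80 in myoglobin. Its difference of -0.39 was 0.02 without replicates 2 and 3, a mean of opposite signs, since Ldha was then at -0.22 and Pdk1 at 0.26. The fat oxidation mean was 3.97, 3.90, 4.07 and 3.99 in vehicle and 4.13, 4.23, 4.39 and 4.61 in myoglobin. Its difference of 0.36 was 0.39 without those libraries, but its members moved apart: Acadm went from 0.25 to 0.06, and the outer and inner Acaa2 peaks from 0.57 and 0.36 to 0.73 and 0.70. The low glycolytic means rested on 22 and 15 reads in replicates 2 and 3, against 57 to 85 in the vehicle libraries.

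**Figure D4:**
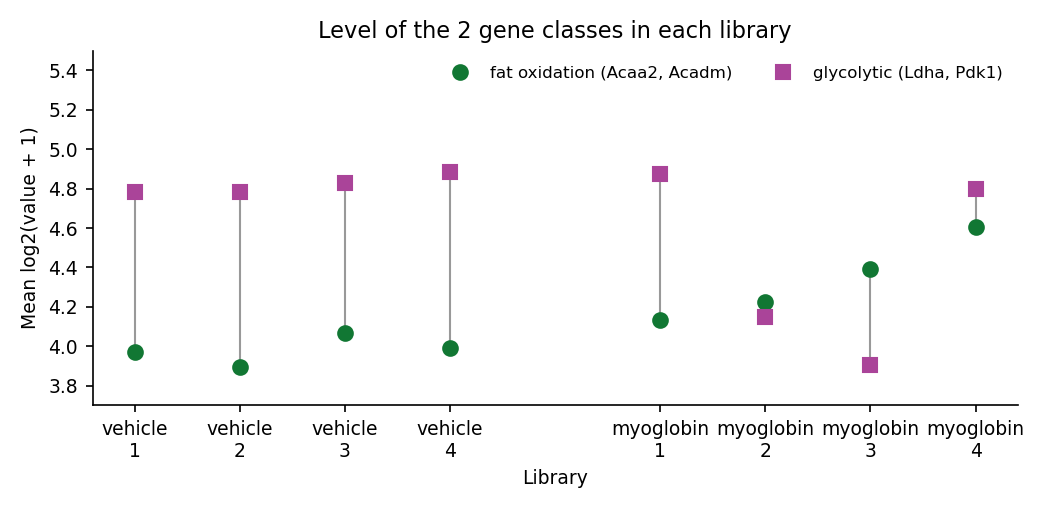
Mean log2(value + 1) of the fat oxidation genes (green circles) and the glycolytic genes (purple squares) in each library, joined by a line. The gap is -0.76 or wider in every vehicle library, narrows to -0.19 in myoglobin replicate 4 and is reversed in replicates 2 and 3, where the glycolytic mean is lowest.

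Per length, the 5 peaks were much alike. In vehicle, the value per 100 bp was 8.10 ± 1.04 at Ldha, 8.07 ± 0.853 at Pdk1, 6.85 ± 0.583 at Acadm, 6.02 ± 1.38 at the inner and 5.60 ± 1.55 at the outer Acaa2 peak. Each neighbour in this order overlapped the next in range. With myoglobin the means of all 3 fat oxidation peaks stood above those of both glycolytic sites, at 8.77 ± 3.19 for the outer Acaa2 peak, 8.40 ± 2.24 for Acadm, 8.21 ± 3.0 for the inner Acaa2 peak, 6.79 ± 3.51 for Pdk1 and 6.12 ± 1.14 for Ldha. These ranges overlapped too. Between Pdk1 and Acadm the order differed from library to library. In myoglobin replicates 1 and 4, Pdk1 was higher, at 10.86 and 8.57 against 6.42 and 7.9. In the shallow replicates 2 and 3 it was lower, at 4.0 and 3.71 against 7.65 and 11.6. The genes were paired into classes with these values known, so the order of the means is no support for a switch. By this density all 5 peaks stood below the middle of the table, between the 38.7 and 47.4 percentiles.

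The other genes of the pathways did not share one direction. No peak of 9 fuel lists passed limma's test over all peaks, in either direction, where 0.249% of all peaks did. Only 1 peak of these lists, at Slc16a1, had an unadjusted p under 0.05 by limma, where 7.6% of all peaks did. Over all 6425 peaks, the median log2 difference was -0.02 and 47.2% of peaks lay above 0.

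Among glycolysis enzymes, 9 of 21 genes had peaks, 10 in all, of which 5 lay above and 5 below 0, with a median of -0.01. Besides Ldha, the smallest p was at Gapdh, the glyceraldehyde-3-phosphate dehydrogenase gene, with 13.5 ± 5.97 for vehicle against 17.5 ± 4.12 for myoglobin (log2 difference 0.43, adjusted p = 0.756 by limma). Pkm (pyruvate kinase) and Aldoa (aldolase A) had the tallest peaks, with log2 differences of -0.05 and 0.05. Without Ldha, the mean log2 level of the other 9 peaks was 4.80 ± 0.17 in vehicle and 4.84 ± 0.08 in myoglobin.

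Transport and flux control genes had 8 peaks at 7 of 14 genes, 4 above and 4 below 0, with a median of -0.01. Slc16a1, the lactate and pyruvate carrier MCT1, was at 11, 4, 12 and 9 in vehicle and at 6, 6, 0 and 8 in myoglobin. Its log2 difference was -1.04 ± 0.47 (unadjusted p = 0.0308, adjusted p = 0.606 by limma), and the 0 was in the shallowest library. Bsg, which encodes the chaperone of that carrier, was at 18.8 ± 4.99 against 25.5 ± 3.87 (log2 difference 0.45, adjusted p = 0.650). The tallest peaks were at Slc2a1, the glucose transporter GLUT1 (0.14), and at Pfkfb4, an enzyme that sets the level of an activator of glycolysis (-0.06).

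Genes for the entry of pyruvate into mitochondria had 7 peaks, 1 above and 6 below 0, with a median of -0.11. Pdk2, another kinase of the pyruvate dehydrogenase complex, was at 32.5 ± 5.07 and 28.0 ± 6.16 (log2 difference -0.22, adjusted p = 0.857 by limma). Mpc2, a subunit of the mitochondrial pyruvate carrier, was much taller and little different, at 85.8 ± 11.1 and 79.2 ± 7.41 (-0.11). Pdhb, a subunit of the dehydrogenase itself, was at -0.09. The carrier and the dehydrogenase bring pyruvate in, while the kinases hold it out, and peaks of both kinds stood slightly below 0 without being called.

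Mitochondrial fatty acid oxidation genes had 10 peaks at 9 of 26 genes, 7 above and 3 below 0, with a median of 0.21. Without the 3 member peaks, 4 were above and 3 below 0 with a median of 0.07, and the mean log2 level was 4.04 ± 0.11 in vehicle and 4.07 ± 0.12 in myoglobin. Acsl1, which activates long-chain fatty acids for oxidation, stood on the other side of 0 from Acaa2 and Acadm, with 40 ± 8.37 for vehicle against 31.0 ± 4.97 for myoglobin (log2 difference -0.34 ± 0.18, adjusted p = 0.672 by limma). Eci1, an enoyl-CoA isomerase, was at -0.06. Peroxisomal oxidation genes had 5 peaks with a median of 0.14. Among these were a low peak at Decr2, a dienoyl-CoA reductase (0.44), and a taller one at Crot, the carnitine octanoyltransferase (0.14). Uptake, storage and synthesis genes had 3, at the fatty acid transporters Slc27a1 (-0.17) and Slc27a4 (0.00) and at Lipe, the hormone-sensitive lipase (-0.29).

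Citric acid cycle genes had 6 peaks, all above 0, with a median of 0.06. Sdhb (a succinate dehydrogenase subunit) and Idh2 (isocitrate dehydrogenase) were at 0.31 each, and the tallest, Mdh2 (malate dehydrogenase) and Ogdh (oxoglutarate dehydrogenase), at 0.04 and 0.08. The hypoxia pathway and its other targets had 11 peaks, 5 above and 6 below 0, with a median of -0.19. Bnip3, a mitophagy receptor and HIF target, was at 25.5 ± 4.04 and 32.2 ± 6.13 (log2 difference 0.32, adjusted p = 0.726 by limma), against -0.52 at the outer peak of its relative Bnip3l. The tallest, Ddit4, an inhibitor of mTOR signalling, and P4ha1, a collagen prolyl hydroxylase subunit, were at 0.03 and 0.11. Fuel regulators had 9 peaks, 2 above and 7 below 0, with a median of -0.11. Max, the partner of Myc, was at 29.0 ± 2.94 and 22.8 ± 7.93 (-0.40, adjusted p = 0.684). Mlxip, a glucose-sensing factor, was at -0.28, and Esrra, a nuclear receptor that drives mitochondrial genes, at 0.00.

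**Figure D5:**
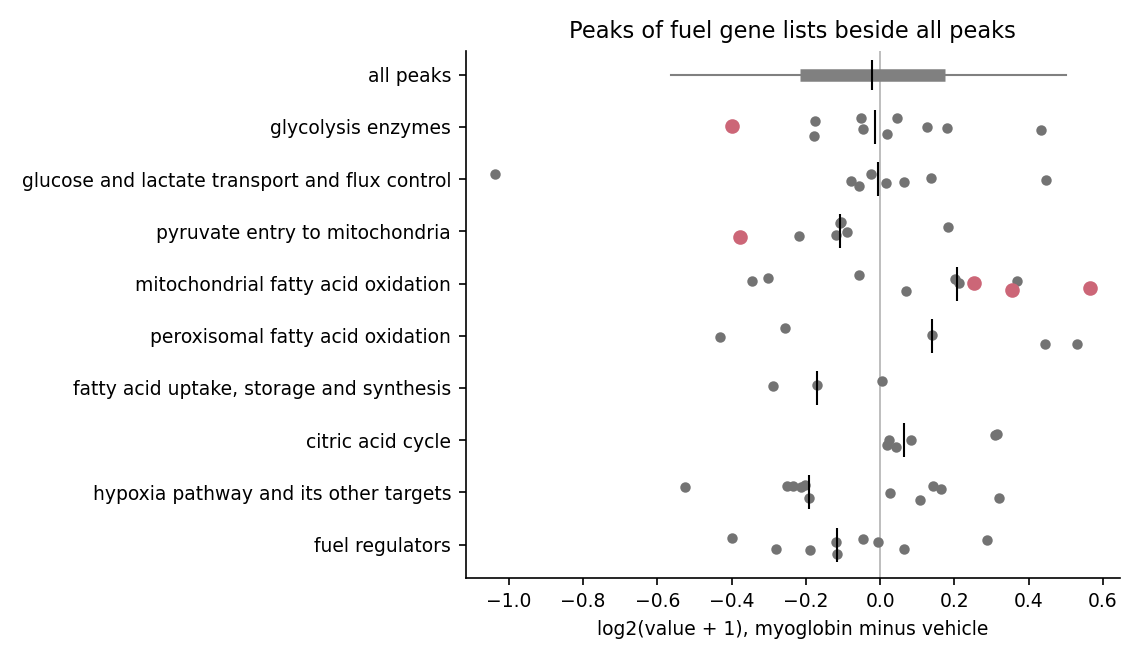
Difference in log2(value + 1), myoglobin minus vehicle, for each peak of the 9 fuel lists, with the members in red, list medians as black ticks and jitter on the vertical axis for display. The grey bar for all peaks runs from the 25th to the 75th percentile (-0.22 to 0.17) and its line from the 5th to the 95th (-0.56 to 0.50). The outer Acaa2 peak, at 0.57, is the only member outside that line, and Slc16a1 is lowest at -1.04.

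The peaks most like each member over the 8 libraries were found by Pearson's r of log2(value + 1) among 3416 or 3417 peaks at other named genes with a mean of 10 or more. For Pdk1 they were Metap1 (0.960) and Rabac1 (0.958). Rabac1 was at 21, 17, 17 and 20 in vehicle and 21, 11, 9 and 16 in myoglobin, low in the same 2 libraries. For Ldha they were Esrp2 (0.949) and Hpn (0.944), and for Acadm Ddost (0.967) and Map3k9 (0.935). The outer Acaa2 peak was closest to Epb41 (0.976) and Rap1gds1 (0.932), and the inner one to Frem2 (0.981) and Ndufb5 (0.948). These are the highest of many correlations over the same 8 libraries, which share depth and treatment, and between 3 and 12 peaks reached 0.9 for each member. Among the members, r was 0.59 between Ldha and Pdk1, 0.52 between the Acaa2 peaks, and -0.78 and -0.73 for Acadm with Ldha and Pdk1. Acaa2 did not share that pattern: with Ldha and Pdk1, r was -0.22 and -0.09 for its outer and 0.23 and 0.32 for its inner peak. Acadm with the Acaa2 peaks gave 0.27 and -0.37 for the outer and the inner one. All of these are descriptions over the same libraries.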

How the data were processed

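ATAC-seq was run on 50000 cells per library, in 4 vehicle and 4 myoglobin libraries. The submitters' processing notes list DESeq2 1.36.0, featureCounts, Picard 3.0.0, STAR 2.7.10a and Trimmomatic 0.39, and the build mm10. Their role and order, the peak caller, and the handling of duplicates, mitochondrial reads and the Tn5 offset are not given in the sources used here. The deposited values are treated as a score: the authors scaled the libraries and rounded to whole numbers, so count tests were not run.

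limma 3.58.1 in R 4.3.3 was fitted to log2(value + 1) of all 6425 peaks, without a filter, with treatment as the only term, a variance trend and two-sided Benjamini-Hochberg adjustment (threshold 0.05). Most of the variance estimate at a peak was borrowed (prior degrees of freedom 78.5, residual 6). Fold changes on this scale understate changes of low peaks. Each column's scaling factor was estimated from its skipped and over-used whole numbers, and values were divided by it to give reads, which for vehicle can be off by 1. Counting intervals are 95%. Amplified reads are not independent molecules. Both methods were tested on simulated data. The scaling factor was recovered closely at randomly drawn factors, less exactly near 1, and was missed at both simple fractions tried. Its likelihood was made more tolerant, and the limit of this test loosened, after such a miss; the factors estimated from the deposited values were the same before and after. The cause of the misses was not tested. The estimate for vehicle replicate 1, 0.748, lies near one of the missed fractions, so its read number is less sure. Those for vehicle replicate 3 (0.971) and myoglobin replicates 1 (1.012) and 4 (1.0435) lie near 1, where recovery was less exact.

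Named were all member peaks, per list the 2 tallest peaks and the 2 of lowest p, and the 2 most alike peaks per member. Some peaks that this rule names are not reported here, and the counts and medians of their list include them. The members and the lists were chosen with earlier results of these data known. Lists covered glycolysis, glucose and lactate transport, pyruvate entry, mitochondrial and peroxisomal fatty acid oxidation, fatty acid uptake, storage and synthesis, citric acid cycle, hypoxia, fuel regulators and cell type markers. All 4 member symbols matched the RefSeq table (GRCm38.p6, which mm10 names). Alternatives were other scalings, pseudocounts of 0.1 and 5, filters at means of 1 and 10, leaving out single libraries, a block for replicate number, no variance trend and library weights. Leaving out the 2 shallowest libraries and summing the Acaa2 peaks were chosen after seeing the data.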

Additional observations from a re-analysis of the deposited data

Results flagged for a closer look

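Dixon's test for a single distant library was applied to 72 groups of 4 and picked out 1. About 1 in 20 would be picked by chance, or 3.6 here, and small whole numbers make the test loose. At the Mdh2 promoter, which belongs to the citric acid cycle list, myoglobin replicate 3 was at 34 against 52, 55 and 52. No group at Ldha, Pdk1, Acaa2 or Acadm was picked out; the low Pdk1 values of myoglobin came as a pair, 14 and 13.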

How the results depend on the processing

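No member peak reached an adjusted p under 0.05 in any of 93 limma fits under alternatives (lowest 0.367, Pdk1 without myoglobin replicate 1). The filter at a mean of 1 left all 6425 peaks in, so its fits, counted among the 93, only repeat the main one. The sign turned once, at Pdk1, to 0.26 without the 2 shallowest libraries. With 1 library left out, log2 differences ran from -0.64 to -0.15 at Pdk1, -0.49 to -0.27 at Ldha, 0.36 to 0.70 at the outer and 0.18 to 0.60 at the inner Acaa2 peak, and 0.09 to 0.37 at Acadm. The class difference of 0.74 stayed between 0.61 and 0.79 under the other scalings, pseudocounts and ways of counting peaks, and ran from 0.55 to 0.96 with 1 library left out. The 16 peaks called in the whole table became 9 with a pseudocount of 0.1, 7 without the variance trend, and 7 to 15 with 1 library left out (7, 9 and 8 without vehicle replicates 1, 2 and 4). In the other direction, 21 were called with a pseudocount of 5, 22 with library weights and 19 without the 2 shallowest libraries. With the replicate number as a block, 10 peaks were called and no member's call changed. Same-numbered libraries did not deviate together (correlations 0.026, 0.015, -0.013 and 0.009), and not every library correlated best with its own number, so the numbers are not read as pairs. The filter at a mean of 10 left out both Acaa2 peaks, which have no value there. Depth limits most the Acaa2 peaks and the myoglobin values from replicates 2 and 3. The cause of the changed counts was not tested.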

Other observations

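Few other peaks lay near the member genes, and those named here were chosen after their values were seen. Within 100000 bp, the Ldha site had 1 neighbour, a peak of Hps5 43142 bp away, with 7.5 ± 3.11 for vehicle against 10.5 ± 7.68 for myoglobin (log2 difference 0.32, adjusted p = 0.908 by limma). The higher myoglobin mean rested on replicate 4, at 22, where the other myoglobin libraries were at 7, 6 and 7. Acadm had 1, at the start of Rabggtb and 31303 bp away, at 10 ± 1.63 and 13.0 ± 5.72 (0.23, adjusted p = 0.924). Hps5 takes part in making lysosome-related organelles and Rabggtb encodes a subunit of the enzyme that attaches lipid anchors to Rab proteins. The nearest peak to Pdk1 lay 85915 bp away, without a gene symbol in the table, at 16.5 ± 1.29 and 17.0 ± 6.98 (-0.07). It was also low in myoglobin replicate 3, at 7, but not in replicate 2, at 20.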
